A study of Homo sapiens with 25 samples.

Results

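The NRF2 program described here is a set of 34 genes of antioxidant defence, NADPH supply and detoxification that are known to be active in A549, a long-established cell line from a human lung carcinoma. The genes were chosen by name from what is known of the pathway, with earlier results of these data known. All 34 had a row among the 28395 gene rows of the count table, and all 34 were among the 14658 genes that passed the filter on low counts, so none is missing from the comparisons. They comprise 3 regulators, 5 genes of glutathione supply and use, 4 of the thioredoxin system, 4 of NADPH supply and the pentose phosphate pathway, and 9 of quinone, carbonyl and epoxide detoxification. The remaining members are 4 genes of haem and iron handling, 3 exporters and 2 other targets.

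RNA was counted in 12 libraries, 3 in each of 4 groups, which received 5-Ph-IAA together with prexasertib, 5-Ph-IAA alone, prexasertib alone, or DMSO. All 4 groups were A549 cells with a degron tag (mAID) on TRRAP, a scaffold protein of histone acetyltransferase complexes. All were held for 20 h in 2 mM thymidine, which stalls DNA replication, and released for 4 h. The auxin analogue 5-Ph-IAA, which directs degron-tagged protein to degradation, was given at 1 µM for 6 h, and prexasertib, which inhibits the checkpoint kinase CHK1, for 3 h. The labels of the RNA and chromatin samples give the prexasertib dose in different units, so no dose is given. Degron cells are named in the growth protocol, although the genotype label of the RNA samples reads WT. Each library holds RNA of cells with the degron, so loss of TRRAP and any other action of 5-Ph-IAA cannot be told apart. The comparisons ask what each drug, alone and on top of the other, did to the RNA of the 34 genes.

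NRF2, the protein of the gene NFE2L2, is a transcription factor that binds antioxidant response elements together with small MAF proteins such as MAFG. In unstressed cells KEAP1 holds NRF2 and presents it to a CUL3 ubiquitin ligase, so that the protein is made and destroyed continuously. Electrophiles and oxidants modify KEAP1 and spare NRF2, whose targets then supply glutathione, thioredoxin and NADPH and clear quinones, carbonyls and haem. A549 cells carry an inactivating KEAP1 mutation, and their NRF2 targets are known to be high without any inducer.

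Total counts per library lay between 10830048 and 17789482, and levels are given in CPM, counts relative to library size, on library sizes scaled by TMM, a method that sets most genes to no change between libraries. The TMM factors were 1.02 to 1.1 with 5-Ph-IAA, alone or with prexasertib, and 0.925 to 0.978 without it. Scaled by library size alone, the median log2 fold change of all genes would be higher by 0.16 for 5-Ph-IAA against DMSO, by 0.14 for both drugs against prexasertib and by 0.10 for both drugs against DMSO. The fold changes below are therefore relative to the typical gene. Cell type markers are given in CPM without TMM scaling. Of 9 fixed A549 markers, the keratin genes KRT8, KRT18 and KRT7 averaged 3251, 2114 and 3015 CPM over the 12 libraries, and CDH1 98.8 CPM. The others were low, with KRT19 at 4.24, EPCAM at 0.807, SFTPC at 0.289 and NKX2-1 at 0.0907 CPM on average, and SFTPB at 0. The 12 fixed markers of other cell types summed to 109 to 132 CPM with both drugs, 111 to 135 CPM with 5-Ph-IAA, 118 to 128 CPM with prexasertib and 109 to 125 CPM in DMSO. The highest of them were SNAP25, COL1A1 and CD68, which averaged 48.4, 31.7 and 30.6 CPM over the 12 libraries. In such bulk RNA, fewer cells that express a gene and less RNA per cell cannot be told apart. TRRAP mRNA, which does not report on the degraded protein, had 116, 99.7 and 141 CPM with both drugs, 129, 149.5 and 119 CPM with 5-Ph-IAA, 76.5, 84.2 and 63.6 CPM with prexasertib and 79.2, 75.9 and 94.5 CPM in DMSO.

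In each group the libraries numbered 1 and 2 lay close to each other, and the library numbered 3 stood apart. Per gene, the chi-square between 2 libraries of a group was 2.24 to 3.97 for numbers 1 and 2, against 13.0 to 19.5 where one of them was number 3. The labels do not say what the numbers stand for or whether the libraries came from separate cultures, so p-values cover only the spread among these libraries, which may be technical. The libraries numbered 3 deviated together across groups, while those numbered 1 or 2 correlated with their own number about as with the other. A fit with the replicate number as a block is therefore given as counts of calls in every comparison. It is given by value beside many of the results whose call it changes. Its p-values take same-numbered libraries as paired, which the labels do not state. The members shared the pattern of the libraries numbered 3. The library numbered 3 was the highest of its group in all 4 groups for 17 members (18.4% of all genes tested) and the lowest in all 4 for 9 members (16.5% of all genes). Together these are 76.5% of the members, against 34.8% of all genes tested. Many of the genes tested lie below the lowest member, so these 2 shares are not matched for level.

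The letters that define the antioxidant response element can be seen in the DNA before some of these genes. RefSeq promoter windows on GRCh38.p14, 250 bases before to 50 bases after the transcription start, were matched for 26 of the 34 members. TGACNNNGC, the core of the element, was found on either strand in windows of 9 of the 26 members (34.6%), against 16.1% of 27305 genes with such a window. The following 6 windows lie wholly upstream of the gene and are printed 5′ to 3′ on the strand of the gene, with the core in capitals. They are shown because the core is the sequence NRF2 is known to bind.

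PGD, chr1:10398843-10398891, plus strand, core on the other strand: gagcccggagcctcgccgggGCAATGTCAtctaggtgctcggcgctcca
GCLM, chr1:93909436-93909484, minus strand, core on the other strand: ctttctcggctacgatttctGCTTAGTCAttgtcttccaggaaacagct
ME1, chr6:83431160-83431208, minus strand, core on the gene's strand: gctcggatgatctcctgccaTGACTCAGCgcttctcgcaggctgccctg
TXNRD1, chr12:104215660-104215708, plus strand, core on the gene's strand: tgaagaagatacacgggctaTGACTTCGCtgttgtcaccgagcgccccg
GPX2, chr14:64942839-64942887, minus strand, core on the other strand: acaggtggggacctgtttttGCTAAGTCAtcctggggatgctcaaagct
CBR1, chr21:36069845-36069893, plus strand, core on the other strand: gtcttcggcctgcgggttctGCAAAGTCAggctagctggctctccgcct

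The other members with the core were EPHX1, KEAP1 and PIR. The related AP-1 element TGACTCA, which overlaps the core in ME1 and in PIR, was found in 3 of 26 members and in 6.05% of all genes. The E-box CACGTG was found in 2 of 26 members and in 8.77% of all genes, and the cell cycle element TTTGAA in 2 of 26 members and in 18.2% of all genes. A match is a string of letters in a window and no evidence of binding. A window without a match does not show that the gene lacks the element, since DNA beyond the window was not searched. Members without a window, HMOX1, SLC7A11 and AKR1B10 among them, were not searched at all. Of the 6 genes printed above, PGD alone was called lower with 5-Ph-IAA averaged over both arms, and none was called in a comparison of 1 pair of groups, both without the block.

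Together the 34 genes held 3.81% to 3.87% of all counts with both drugs, 3.8% to 4.1% with 5-Ph-IAA, 3.66% to 3.87% with prexasertib and 3.86% to 4.12% in DMSO. These are shares of raw counts, without TMM scaling, and their ranges overlapped for every pair of groups. Among libraries of the same number, which the labels do not state to be paired, the DMSO library held the highest share each time. In libraries 1, 2 and 3 the share was 3.86%, 3.93% and 4.12% in DMSO and 3.70%, 3.66% and 3.87% with prexasertib. The median over members of the within-group coefficient of variation was 9%, and 3.6% over the libraries numbered 1 and 2. Over the 7074 genes tested at or above the level of the lowest member these medians were 7.76% and 4.4%. The largest fold change of a member in the 5 comparisons between groups was that of HMOX1, -0.71 on the log2 scale for both drugs against DMSO.

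**Figure D1:**
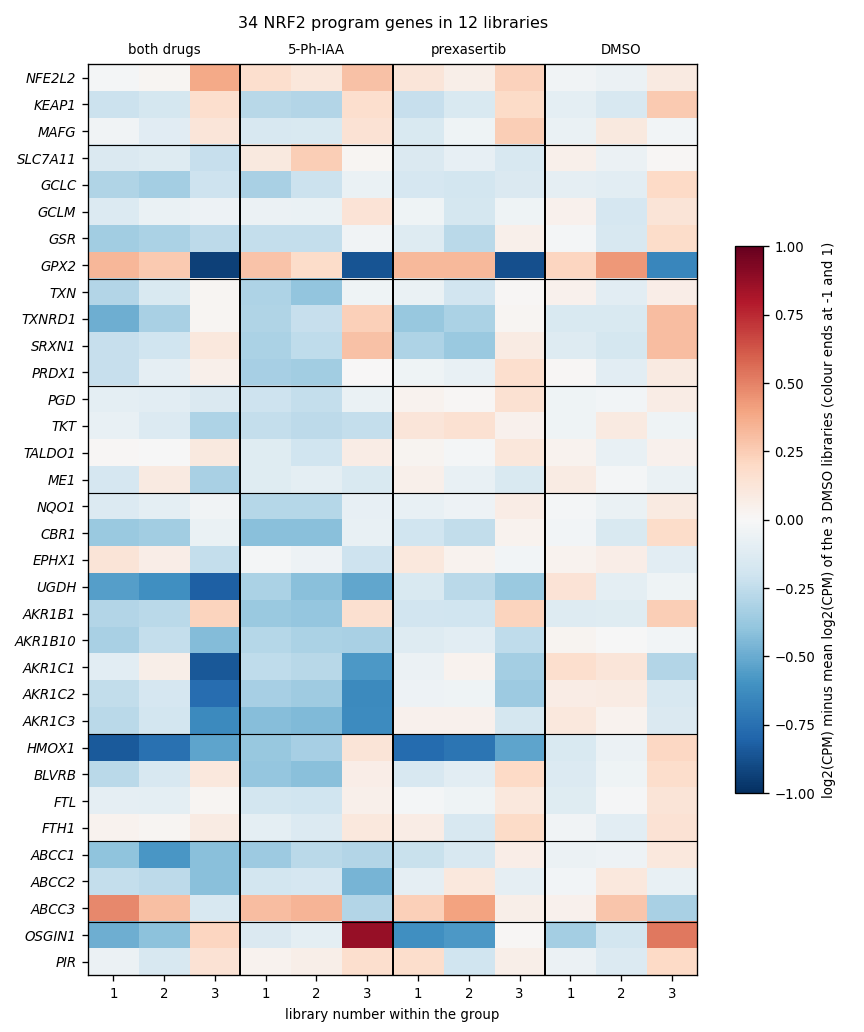
Level of each of the 34 genes (rows, grouped by role) in each of the 12 libraries (columns), as log2 CPM minus the mean log2 CPM of the 3 DMSO libraries, with colours ending at -1 and 1. UGDH and HMOX1 are lower in all 3 libraries with both drugs than in DMSO, and GPX2 is lowest in the library numbered 3 of every group.

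A gene was called when its adjusted p in edgeR's quasi-likelihood test was under 0.05 over all 14658 genes. With 5-Ph-IAA against DMSO, 6 of 34 members were lower (17.6%), where 12.2% of all genes were, and 0 were higher, where 9.65% of all genes were. The 6 were TKT, UGDH, AKR1B10, AKR1C2, AKR1C3 and ABCC1. The median member log2 fold change was -0.17, beside 0.01 for all genes tested. With both drugs against prexasertib, 3 members were lower (TKT, UGDH and ABCC1), where 10.4% of all genes were lower, and 0 were higher, where 7.85% were. The median was -0.06, beside 0.01 for all genes. These 2 comparisons share no library. In them 26 of 34 members had a negative fold change in both, 1 a positive one in both and 7 opposite signs, and 38.3% of all genes were negative in both. These signs depend on the TMM scaling, as given below.

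With both drugs against DMSO, 8 members were lower, where 14.2% of all genes were, and 0 were higher, where 11.8% were. They were GCLC, GSR, UGDH, AKR1B10, AKR1C3, HMOX1, ABCC1 and ABCC2, and the median member stood at -0.12, beside 0.01 for all genes. Prexasertib against DMSO gave 1 lower member, HMOX1, and 0 higher members, where 2.37% and 2.36% of all genes were called. Both drugs against 5-Ph-IAA gave 1 lower member, SLC7A11, and 0 higher, where 1.26% and 1.17% of all genes were called. In these last 2 comparisons the median member stood at -0.05 and 0.04, beside -0.004 and 0.01 for all genes. They too share no library, and 13 members were negative in both, 9 positive in both and 12 of opposite sign, where 33.3% of all genes were negative in both. The groups did not overlap for 10 lower and 1 higher member with 5-Ph-IAA against DMSO (18.9% and 18.5% of all genes), 7 and 0 with both drugs against prexasertib (17.6% of all genes each way) and 12 and 0 with both drugs against DMSO (20.8% and 19.7%). For prexasertib against DMSO they numbered 5 and 0 (11.3% and 9.78%), and for both drugs against 5-Ph-IAA 5 and 0 (10.7% and 8.87%). For each count of 0 called higher members, edgeR gave 0 higher at an unadjusted p under 0.05, and DESeq2 and limma-voom also called 0.

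The blocked fit called more members and lost none of these calls. It gave 20 lower and 2 higher members for 5-Ph-IAA against DMSO (23.6% and 19% of all genes), 9 lower and 0 higher for both drugs against prexasertib (19.9% and 17.2%), and 18 lower and 1 higher for both drugs against DMSO (23.5% and 21.2%). It gave 8 lower and 1 higher for prexasertib against DMSO (9.77% and 8.37%), and 6 lower and 1 higher for both drugs against 5-Ph-IAA (7.7% and 7.8%). Without the 4 libraries numbered 3, 16 members were lower and 2 higher for 5-Ph-IAA against DMSO (19.3% and 16.7% of all genes), 8 and 0 for both drugs against prexasertib (17.4% and 13.1%), and 15 and 1 for both drugs against DMSO (20.1% and 17.4%). That fit gave 5 lower and 0 higher for prexasertib against DMSO (7.01% and 7.2%), and 6 lower and 4 higher for both drugs against 5-Ph-IAA (7.68% and 6.18%). Single libraries moved the counts too. For 5-Ph-IAA against DMSO, 3 members were lower without 5-Ph-IAA library 1 and 13 without 5-Ph-IAA library 3. For both drugs against DMSO, 5 were lower without DMSO library 1 or without library 1 or 2 of both drugs. The single lower member of prexasertib against DMSO was lost without DMSO library 3 or prexasertib library 1 or 2, and that of both drugs against 5-Ph-IAA without any of 10 libraries. For 5-Ph-IAA averaged over both arms, 15 were lower without 5-Ph-IAA library 3. Shares of all genes are not given for fits without a single library, so their member counts cannot be set beside all genes.

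The scaling bears on these counts. With library size alone, 0 members were called lower and 2 higher with 5-Ph-IAA against DMSO (NFE2L2 and SLC7A11), 0 were called with both drugs against prexasertib, and 4 were lower with both drugs against DMSO. On that scale the median member stood at -0.01, 0.08 and -0.02 in these 3 comparisons, where the median of all genes stood at 0.16, 0.15 and 0.11. Negative fold changes numbered 18, 9 and 21 of 34 members in the same order. Each member called with TMM kept a negative one. The shares of all genes called on that scale are not given, so these counts cannot be set beside all genes.

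Averaged over the arms of the other drug, 5-Ph-IAA gave 8 lower members and 0 higher, where 18.4% and 17.3% of all genes were called. They were PGD, TKT, UGDH, AKR1B10, AKR1C2, AKR1C3, ABCC1 and ABCC2, and the median member stood at -0.11. The blocked fit gave 20 lower and 2 higher members (27.3% and 26.1% of all genes). Prexasertib gave 3 lower members and 0 higher, where 6% and 4.35% of all genes were called, namely SLC7A11, UGDH and HMOX1, with a median member at -0.006. The blocked fit gave 10 lower and 2 higher (13.9% and 13.2% of all genes). Both averaged contrasts had 0 higher members at an unadjusted p under 0.05 by edgeR and 0 called higher by DESeq2 or limma-voom.

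**Figure D2:**
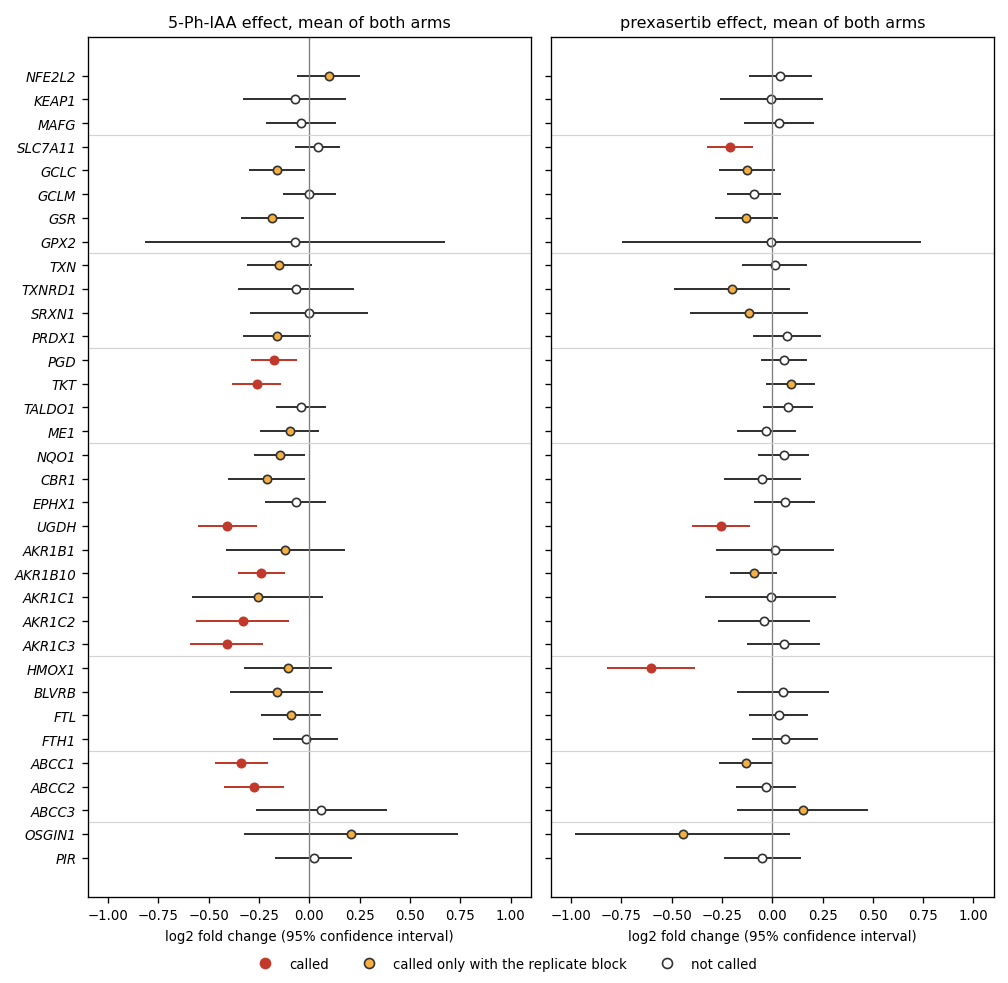
Log2 fold change of each of the 34 genes with its 95% confidence interval, for 5-Ph-IAA (left) and prexasertib (right), each averaged over both arms of the other drug. Red points were called, orange points were called only in the blocked fit and open points in neither. The 8 red points on the left and the 3 on the right all lie below 0.

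The interaction, which is the 5-Ph-IAA effect with prexasertib minus that without it, was called for 0 of 34 members and 0 of all genes. EdgeR gave 0 members and 519 of all 14658 genes at an unadjusted p under 0.05, and DESeq2 and limma-voom called 0 members. The blocked fit called 0 members and 0.655% of all genes, with 12 members and 1679 of all 14658 genes at an unadjusted p under 0.05. The largest interaction among the members was that of AKR1C1, 0.23 ± 0.29 (SE, adjusted p = 1). It was called without the libraries numbered 3, at 0.37 ± 0.083 (SE, adjusted p = 0.0136). Its 95% interval over all libraries was -0.41 to 0.88.

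Among the regulators, NFE2L2 encodes NRF2 itself (NCBI Gene 4780, chromosome 2, 177230303 to 177264727 on hg38). It had 132, 136 and 175 CPM with both drugs, 151, 145 and 165 CPM with 5-Ph-IAA, 146, 139.9 and 158 CPM with prexasertib and 132, 129 and 143 CPM in DMSO, given for libraries 1, 2 and 3 as in every sentence of this kind. The libraries with 5-Ph-IAA alone all lay above those in DMSO, while the libraries with both drugs overlapped every other group. The log2 fold change of 5-Ph-IAA against DMSO was 0.19 ± 0.10 (SE, adjusted p = 0.194) and was called in the blocked fit (0.19, adjusted p = 0.00528), and that of both drugs against prexasertib was -0.00037 ± 0.10 (adjusted p = 0.999).

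KEAP1, the adaptor that delivers NRF2 for degradation (NCBI Gene 9817, chromosome 19, 10486125 to 10503356), had 120.1, 123 and 157 CPM with both drugs, 115, 114 and 156 CPM with 5-Ph-IAA, 119, 126 and 159 CPM with prexasertib and 130.0, 125 and 167 CPM in DMSO. The library numbered 3 was the highest in each group, by 0.40 log2 units on average, and every pair of groups overlapped. With 5-Ph-IAA against DMSO its log2 fold change was -0.13 ± 0.16 (adjusted p = 0.614), and the blocked fit called it lower (adjusted p = 0.0392). Both drugs against prexasertib gave -0.01 for KEAP1 (adjusted p = 0.978), called in neither fit. MAFG, the small MAF partner (NCBI Gene 4097, chromosome 17, 81918270 to 81931244), had 168, 159.6 and 188 CPM with both drugs, 155, 156 and 191 CPM with 5-Ph-IAA, 155, 168 and 206 CPM with prexasertib and 165, 185 and 169.6 CPM in DMSO. No group stood apart for MAFG, and its 5 fold changes lay between -0.05 and 0.04. Genes that overlap MAFG, an antisense RNA among them, held counts equal to 5.83% of its own, and the strand setting of the counts is not given in the sources used here.

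In the glutathione group, SLC7A11 imports cystine, the limiting amino acid source for glutathione (NCBI Gene 23657, chromosome 4, 138164097 to 138242349). It had 248, 251 and 234 CPM with both drugs, 293, 326 and 278 CPM with 5-Ph-IAA, 249, 259 and 245 CPM with prexasertib and 284, 263 and 276 CPM in DMSO. The 3 libraries with both drugs lay below the 3 with 5-Ph-IAA and below the 3 in DMSO, and the libraries with prexasertib alone also lay below DMSO. SLC7A11 was lower with both drugs than with 5-Ph-IAA, at -0.29 ± 0.070 (SE, adjusted p = 0.0458) on the log2 scale, a call lost when any library but prexasertib 3 and 5-Ph-IAA 3 was left out (adjusted p up to 0.228) and with RLE size factors. Averaged over both arms, the prexasertib effect was -0.21 ± 0.050 (adjusted p = 0.0155), and this call was kept without each single library. Both drugs against DMSO gave -0.17 ± 0.070 (adjusted p = 0.0955) and was called only in the blocked fit (adjusted p = 0.00755).

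GCLC and GCLM encode the catalytic and modifier subunits of glutamate-cysteine ligase, which starts glutathione synthesis. GCLC (NCBI Gene 2729, chromosome 6, 53497341 to 53545101) had 137, 133 and 146 CPM with both drugs, 135, 145 and 161 CPM with 5-Ph-IAA, 150.2, 149 and 153 CPM with prexasertib and 159, 156 and 193 CPM in DMSO. Except for library 3 with 5-Ph-IAA, all libraries of the other groups lay below the lowest DMSO library, and the DMSO library numbered 3 was the highest of all. With both drugs GCLC was lower than in DMSO, at -0.29 ± 0.089 (adjusted p = 0.0297), and the call was lost without DMSO library 3 or without library 1 or 2 of both drugs (adjusted p up to 0.129). The blocked fit also called GCLC lower with 5-Ph-IAA (-0.20, adjusted p = 0.00276) and with prexasertib (-0.17, adjusted p = 0.0344), each against DMSO. Both drugs gave -0.12 against prexasertib and -0.08 against 5-Ph-IAA for GCLC, called in neither fit.

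GCLM (NCBI Gene 2730, chromosome 1, 93885199 to 93909430) had 224, 234 and 237 CPM with both drugs, 236, 235 and 270.1 CPM with 5-Ph-IAA, 239, 218 and 238 CPM with prexasertib and 252, 219 and 268 CPM in DMSO. Its groups overlapped in all 5 comparisons, and neither fit called it. The fold changes of 5-Ph-IAA lay at 0.0016 against DMSO and -0.00046 with prexasertib present, with a 95% interval of -0.13 to 0.13 for their average. GSR, glutathione reductase, had 246, 253 and 262 CPM with both drugs, 266, 266 and 307 CPM with 5-Ph-IAA, 287, 260.2 and 324 CPM with prexasertib and 309, 281 and 356 CPM in DMSO. The 3 libraries with both drugs were below the 3 in DMSO, and GSR was lower, at -0.31 ± 0.10 (adjusted p = 0.0333), a call lost without DMSO library 1 or 3 or library 1 or 2 of both drugs (adjusted p up to 0.136). The blocked fit also called GSR lower with 5-Ph-IAA against DMSO (-0.17, adjusted p = 0.00764) and with both drugs against prexasertib (-0.19, adjusted p = 0.00372).

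GPX2, a glutathione peroxidase of epithelia, had the largest spread within groups of any member. It stood at 70.8 to 182 CPM, and every library numbered 3 was far below its group, at 70.8, 74, 73.2 and 85.9 CPM with both drugs, 5-Ph-IAA, prexasertib and DMSO. Neither fit called it in any comparison.

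Among the thioredoxin genes, TXNRD1 encodes the cytosolic thioredoxin reductase (NCBI Gene 7296, chromosome 12, 104215779 to 104350307). It had 1813, 2033 and 2573 CPM with both drugs, 2061, 2162 and 2994 CPM with 5-Ph-IAA, 1952, 2041 and 2583 CPM with prexasertib and 2282, 2286 and 3149 CPM in DMSO. Each group's library 3 was the highest, by 0.44 log2 units on average, and the libraries of both drugs and of prexasertib lay below the DMSO library of the same number. The log2 fold change was -0.27 ± 0.18 (SE, adjusted p = 0.325) for both drugs and -0.23 ± 0.18 (adjusted p = 0.605) for prexasertib, each against DMSO. The blocked fit called both lower (adjusted p = 5.1e-06 and 0.000246).

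TXN, thioredoxin itself, ran over 525 to 724 CPM and had a 5-Ph-IAA effect of -0.24 ± 0.10 (adjusted p = 0.112) against DMSO, called in the blocked fit (adjusted p = 0.000135). PRDX1, a peroxiredoxin that thioredoxin recycles, ran over 853 to 1215 CPM, with -0.22 ± 0.11 (adjusted p = 0.172) for the same comparison (blocked adjusted p = 0.000245). With both drugs against prexasertib TXN had -0.05 (adjusted p = 0.779) and PRDX1 -0.11 (adjusted p = 0.545), called in neither fit. SRXN1, the sulfiredoxin that repairs overoxidized peroxiredoxins, ran over 427 to 681 CPM. For prexasertib against DMSO SRXN1 had -0.20 ± 0.19 (adjusted p = 0.678) (blocked adjusted p = 0.00371). On top of 5-Ph-IAA its prexasertib value was -0.03 (adjusted p = 0.966), called in neither fit. None of the 4 thioredoxin genes was called without the block.

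Of the NADPH genes, TKT encodes transketolase of the nonoxidative pentose phosphate pathway (NCBI Gene 7086, chromosome 3, 53224712 to 53256022). It had 1824, 1747 and 1555 CPM with both drugs, 1631, 1601 and 1625 CPM with 5-Ph-IAA, 2091, 2134 and 1976 CPM with prexasertib and 1867, 2039 and 1861 CPM in DMSO. The 3 libraries with 5-Ph-IAA all lay below the 3 in DMSO, and the 3 with both drugs below the 3 with prexasertib, the highest group. TKT was lower, at -0.25 ± 0.076 (SE, adjusted p = 0.0333) with 5-Ph-IAA against DMSO and at -0.27 ± 0.076 (adjusted p = 0.0233) with both drugs against prexasertib. The averaged 5-Ph-IAA effect was -0.26 ± 0.054 (adjusted p = 0.00201), and it was called without each single library. The call of 5-Ph-IAA against DMSO was lost without DMSO library 1 or 2, prexasertib library 1, or 5-Ph-IAA library 1 or 2 (adjusted p up to 0.118), and that of both drugs against prexasertib without prexasertib library 1 or 2 or library 2 or 3 of both drugs (adjusted p up to 0.0799). With the block TKT was called lower with both drugs against DMSO (-0.17, adjusted p = 0.00293), and higher with prexasertib averaged over both arms (0.09, adjusted p = 0.0424).

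PGD, 6-phosphogluconate dehydrogenase, an NADPH source of the oxidative branch, had 1164, 1162 and 1128 CPM with both drugs, 1079, 1059.9 and 1192 CPM with 5-Ph-IAA, 1281, 1257 and 1385 CPM with prexasertib and 1210.5, 1222 and 1315 CPM in DMSO. Its libraries with 5-Ph-IAA were all below DMSO and those with both drugs all below prexasertib, and the averaged 5-Ph-IAA effect was -0.18 ± 0.051 (adjusted p = 0.016). The 2 pairwise values, -0.17 and -0.18, were called only in the blocked fit (adjusted p = 0.00309 and 0.00202). TALDO1, transaldolase, stood at 326 to 405 CPM and neither fit called it. ME1, malic enzyme, stood at 115 to 153 CPM, and its averaged 5-Ph-IAA effect was -0.10 ± 0.067 (adjusted p = 0.275), which the blocked fit called lower (adjusted p = 0.0499).

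UGDH, which makes UDP-glucuronic acid for glucuronidation (NCBI Gene 7358, chromosome 4, 39498755 to 39527439), had the smallest adjusted p-values of the 34 genes for 5-Ph-IAA averaged over both arms and for both drugs against DMSO. It had 281, 269 and 233 CPM with both drugs, 331, 308 and 287 CPM with 5-Ph-IAA, 370.1, 341 and 319 CPM with prexasertib and 453, 385 and 399.9 CPM in DMSO. All 3 libraries with both drugs were below all other 9 libraries, and the 3 in DMSO were above all the others. With both drugs UGDH was lower than in DMSO, at -0.66 ± 0.093 (SE, adjusted p = 0.000228), and this was called under every alternative run. It was also lower with 5-Ph-IAA against DMSO, at -0.42 ± 0.092 (adjusted p = 0.00567), and with both drugs against prexasertib, at -0.40 ± 0.092 (adjusted p = 0.00915). The prexasertib effect averaged over both arms was -0.25 ± 0.065 (adjusted p = 0.0232). That call was lost without any of 5 single libraries, namely DMSO 1, prexasertib 2, 5-Ph-IAA 1, 5-Ph-IAA 2 and both drugs 3 (adjusted p up to 0.0685). The 2 pairwise prexasertib values were -0.26 against DMSO and -0.24 on top of 5-Ph-IAA, each called in the blocked fit only (adjusted p = 0.000104 and 0.000495).

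NQO1, the quinone reductase often used to read NRF2 activity (NCBI Gene 1728, chromosome 16, 69709401 to 69726560), had 1722, 1771 and 1850.2 CPM with both drugs, 1552, 1552 and 1786 CPM with 5-Ph-IAA, 1803, 1827 and 1996 CPM with prexasertib and 1868, 1809 and 2012 CPM in DMSO. The 3 libraries with 5-Ph-IAA lay below the 3 in DMSO, and the libraries with both drugs overlapped those with prexasertib. NQO1 did not pass the test for 5-Ph-IAA against DMSO, -0.22 ± 0.080 (SE, adjusted p = 0.0673), or for both drugs against prexasertib, -0.07 ± 0.080 (adjusted p = 0.578). The blocked fit called it lower with 5-Ph-IAA against DMSO (adjusted p = 8.8e-05), not lower with both drugs against prexasertib (adjusted p = 0.207), and higher with both drugs against 5-Ph-IAA (0.13, adjusted p = 0.041).

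The aldo-keto reductases reduce aldehydes and ketones, and their genes are close copies whose reads can be assigned to the wrong one. AKR1C1, AKR1C2 and AKR1C3 lie side by side on chromosome 10. Their DNA before the start site shows how alike they are. Over 250 bases upstream, AKR1C1 and AKR1C2 were identical at 96.5% of aligned positions, AKR1C1 and AKR1C3 at 72.4%, and AKR1C2 and AKR1C3 at 70.6%. The last 120 bases before the annotated start of the RefSeq window are printed for comparison (GRCh38.p14, 5′ to 3′ on the strand of each gene). For AKR1C2 that start lies inside the span given for the gene, not at its outer end.

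AKR1C1, chr10:4963295-4963414, plus strand: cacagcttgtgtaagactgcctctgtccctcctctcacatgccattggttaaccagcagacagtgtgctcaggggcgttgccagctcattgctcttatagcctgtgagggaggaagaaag
AKR1C2, chr10:5003858-5003977, minus strand: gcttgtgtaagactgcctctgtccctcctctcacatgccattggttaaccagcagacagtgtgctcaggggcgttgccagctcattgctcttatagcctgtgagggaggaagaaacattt
AKR1C3, chr10:5048661-5048780, plus strand: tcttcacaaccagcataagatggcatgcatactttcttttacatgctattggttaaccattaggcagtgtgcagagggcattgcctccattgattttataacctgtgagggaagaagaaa

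AKR1C3, which acts on prostaglandins and steroids (NCBI Gene 8644, chromosome 10, 5048781 to 5107686), had 1501, 1589 and 1160.5 CPM with both drugs, 1349, 1333 and 1168 CPM with 5-Ph-IAA, 1860.1, 1861 and 1603 CPM with prexasertib and 1949, 1851 and 1637 CPM in DMSO. The 3 libraries with 5-Ph-IAA were all below the 3 in DMSO, those with both drugs were all below those with prexasertib, and number 3 was the lowest of each group. Against DMSO it was lower both with 5-Ph-IAA, at -0.50 ± 0.12 (SE, adjusted p = 0.00799), and with both drugs, at -0.36 ± 0.12 (adjusted p = 0.0374). The call for both drugs was lost without DMSO library 1 or 2, prexasertib library 1, or library 1 or 3 of both drugs (adjusted p up to 0.141). Averaged over both arms the 5-Ph-IAA effect was -0.41 ± 0.082 (adjusted p = 0.0016), called under every alternative run. Both drugs against prexasertib gave -0.33 ± 0.12 (adjusted p = 0.0687), called in the blocked fit only (adjusted p = 2.4e-07).

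AKR1C2 (NCBI Gene 1646, chromosome 10, 4987775 to 5018000) had 2494, 2630.5 and 1752 CPM with both drugs, 2354, 2322 and 1903 CPM with 5-Ph-IAA, 2858, 2877 and 2307 CPM with prexasertib and 3119, 3142 and 2654 CPM in DMSO. Its libraries with 5-Ph-IAA all lay below those in DMSO, and so did its libraries with both drugs. AKR1C2 was lower with 5-Ph-IAA against DMSO, at -0.44 ± 0.15 (adjusted p = 0.0487), a call lost when any of 8 of the 12 libraries was left out (adjusted p up to 0.129) and kept only without DMSO library 3, prexasertib library 3, or library 2 or 3 of both drugs. Its averaged 5-Ph-IAA effect was -0.33 ± 0.10 (adjusted p = 0.0239), a call lost without DMSO library 1 or 2 or prexasertib library 1 or 2 (adjusted p up to 0.0605). The blocked fit also called AKR1C2 lower with both drugs against DMSO (-0.39, adjusted p = 1.2e-08), with both drugs against prexasertib (-0.24, adjusted p = 0.000157) and with prexasertib against DMSO (-0.15, adjusted p = 0.0251). AKR1C1 (NCBI Gene 1645, chromosome 10, 4963415 to 4983283) had 372, 416 and 223 CPM with both drugs, 336, 331 and 269 CPM with 5-Ph-IAA, 386, 411 and 317 CPM with prexasertib and 451, 436 and 327 CPM in DMSO. Its groups overlapped, and it did not pass with 5-Ph-IAA against DMSO, -0.37 ± 0.21 (adjusted p = 0.228), except in the blocked fit (adjusted p = 0.0132). Both drugs against prexasertib gave -0.14 for AKR1C1 (adjusted p = 0.703), called in neither fit.

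With the rows of AKR1C1 to AKR1C4 summed into 1 feature, so that reads assigned to the wrong copy no longer matter, the log2 fold change of 5-Ph-IAA against DMSO was -0.45 ± 0.14 (SE, adjusted p = 0.0339). The averaged 5-Ph-IAA effect on this sum was -0.35 ± 0.099 (adjusted p = 0.0132), and both drugs against DMSO gave -0.36 ± 0.14 (adjusted p = 0.0759). In CPM the sum was 4369, 4638 and 3136 with both drugs, 4042, 3988 and 3341 with 5-Ph-IAA, 5107, 5151 and 4229 with prexasertib, and 5524, 5432 and 4621 in DMSO. The libraries with 5-Ph-IAA alone all lay below the lowest DMSO library.

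AKR1B10, a carbonyl and retinal reductase (NCBI Gene 57016, chromosome 7, 134527567 to 134541412), had 2352, 2503 and 2181 CPM with both drugs, 2418, 2373 and 2359.6 CPM with 5-Ph-IAA, 2699, 2746 and 2475 CPM with prexasertib and 3004, 2945 and 2898 CPM in DMSO. Every library with either drug or both lay below the 3 in DMSO. Against DMSO it was lower with 5-Ph-IAA, at -0.31 ± 0.073 (adjusted p = 0.00901), and with both drugs, at -0.33 ± 0.073 (adjusted p = 0.005). Prexasertib against DMSO gave -0.16 ± 0.073 (adjusted p = 0.277), called in the blocked fit only (adjusted p = 0.00911). Summed with its copy AKR1B15 the value for 5-Ph-IAA against DMSO was -0.30 ± 0.074 (adjusted p = 0.0099).

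The remaining 3 detoxification genes were not called without the block. AKR1B1, aldose reductase, stood at 2706 to 4195 CPM, with every library 3 above the others by 0.46 log2 units on average, and had -0.19 ± 0.19 (adjusted p = 0.528) for 5-Ph-IAA against DMSO (blocked adjusted p = 0.000353). CBR1, a carbonyl reductase, stood at 128 to 194 CPM, with -0.30 ± 0.12 (adjusted p = 0.0996) for the same comparison (blocked adjusted p = 8.0e-06). With both drugs against prexasertib AKR1B1 had -0.05 (adjusted p = 0.887) and CBR1 -0.12 (adjusted p = 0.538), called in neither fit. EPHX1, the microsomal epoxide hydrolase, stood at 474 to 614 CPM, and neither fit called it.

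**Figure D3:**
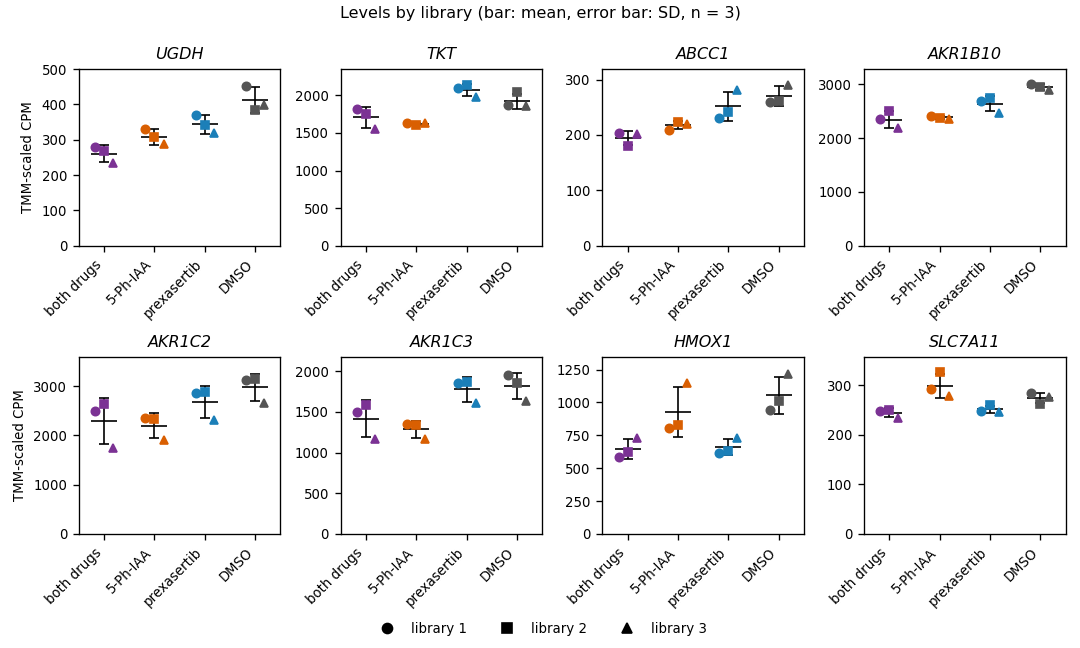
TMM-scaled CPM of 8 members in each library (circle, square and triangle for numbers 1, 2 and 3), with the group mean as a bar and the SD as an error bar (n = 3), groups from left to right both drugs, 5-Ph-IAA, prexasertib and DMSO. The UGDH libraries with both drugs lie below the other 9, and the HMOX1 libraries with prexasertib, alone or with 5-Ph-IAA, lie below those without it.

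HMOX1, haem oxygenase 1, which opens the haem ring and is a target of NRF2 that the repressor BACH1 also controls (NCBI Gene 3162, chromosome 22, 35381096 to 35394207), was the member most changed with prexasertib. It had 585, 625 and 727 CPM with both drugs, 809, 832 and 1145 CPM with 5-Ph-IAA, 616, 633 and 728 CPM with prexasertib and 944, 1008 and 1213 CPM in DMSO. All 6 libraries with prexasertib, alone or with 5-Ph-IAA, lay below all 6 without it. Within each group the library numbered 3 was the highest. HMOX1 was lower with prexasertib against DMSO, at -0.68 ± 0.14 (SE, adjusted p = 0.0148), and with both drugs against DMSO, at -0.71 ± 0.14 (adjusted p = 0.00257). On top of 5-Ph-IAA the prexasertib value was -0.52 ± 0.14 (adjusted p = 0.0712), past the threshold in the blocked fit only (adjusted p = 2.8e-11). Averaged over both arms it was -0.60 ± 0.099 (adjusted p = 0.00163), called under every alternative run. The call for prexasertib against DMSO was lost without DMSO library 3 or prexasertib library 1 or 2 (adjusted p up to 0.0716). 5-Ph-IAA against DMSO gave -0.18 ± 0.14 (adjusted p = 0.379), called in the blocked fit only (adjusted p = 0.00141), and both drugs against prexasertib gave -0.03 ± 0.14 (adjusted p = 0.916).

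The other genes of haem and iron handling were called with prexasertib in neither fit. BLVRB, a biliverdin reductase that acts after haem oxygenase, stood at 204 to 314 CPM and had an averaged prexasertib effect of 0.05 ± 0.10 (adjusted p = 0.828). FTL and FTH1, the light and heavy chains of the iron store ferritin, stood at 6691 to 8408 CPM and 5274 to 6742 CPM. Their averaged prexasertib effects were 0.03 ± 0.066 (adjusted p = 0.838) and 0.06 ± 0.073 (adjusted p = 0.674). With 5-Ph-IAA against DMSO, BLVRB had -0.23 ± 0.15 (adjusted p = 0.288) and FTL -0.11 ± 0.094 (adjusted p = 0.441), each called lower in the blocked fit only (adjusted p = 0.000162 and 0.0368). With both drugs against prexasertib BLVRB had -0.09 (adjusted p = 0.735) and FTL -0.07 (adjusted p = 0.654), called in neither fit.

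ABCC1 and ABCC2 are efflux pumps for glutathione conjugates. ABCC1 (NCBI Gene 4363, chromosome 16, 15949143 to 16143053) had 204, 180.1 and 201 CPM with both drugs, 209.7, 224 and 219.7 CPM with 5-Ph-IAA, 231, 241 and 282 CPM with prexasertib and 259, 261 and 290.3 CPM in DMSO. The 3 libraries with both drugs lay below the other 9, and the 3 with 5-Ph-IAA lay below the 3 with prexasertib and the 3 in DMSO. It was lower with both drugs against DMSO, at -0.47 ± 0.084 (SE, adjusted p = 0.00135), called under every alternative run. It was also lower with 5-Ph-IAA against DMSO, at -0.31 ± 0.084 (adjusted p = 0.0182), and with both drugs against prexasertib, at -0.37 ± 0.085 (adjusted p = 0.0087). The call of 5-Ph-IAA against DMSO was lost without DMSO library 3 or 5-Ph-IAA library 1 (adjusted p up to 0.0741). ABCC2 (NCBI Gene 1244, chromosome 10, 99782640 to 99852594) had 446, 439 and 393 CPM with both drugs, 464, 467 and 381 CPM with 5-Ph-IAA, 495, 566 and 493 CPM with prexasertib and 515, 565 and 499 CPM in DMSO. Its libraries with 5-Ph-IAA, alone or with prexasertib, all lay below the 6 without it. ABCC2 was lower with both drugs against DMSO, at -0.31 ± 0.094 (adjusted p = 0.029), a call lost without DMSO library 1 or 2 or library 2 or 3 of both drugs (adjusted p up to 0.11). Its averaged 5-Ph-IAA effect was -0.28 ± 0.067 (adjusted p = 0.00563). Its 2 pairwise 5-Ph-IAA values, -0.27 ± 0.094 (adjusted p = 0.0573) against DMSO and -0.28 ± 0.094 (adjusted p = 0.0529) against prexasertib, did not pass the threshold and were called in the blocked fit only (adjusted p = 2.7e-05 and 1.9e-05).

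ABCC3, another pump of the same family, stood at 401 to 698 CPM and was not called without the block. With both drugs it had 0.21 ± 0.21 (adjusted p = 0.508) against DMSO, called higher in the blocked fit (adjusted p = 0.0329). The blocked fit also called it higher with prexasertib against DMSO (0.23, adjusted p = 0.041) and with prexasertib averaged over both arms (0.16, adjusted p = 0.0323). Both drugs against prexasertib gave -0.009 ± 0.21 (adjusted p = 0.987). OSGIN1, a growth inhibitor induced by oxidative stress, ran over 59.2 to 165 CPM, with every library 3 the highest of its group. Its averaged prexasertib effect was -0.45 ± 0.24 (adjusted p = 0.307), with a blocked value of -0.42 (adjusted p = 9.9e-10). Its averaged 5-Ph-IAA effect was 0.21 ± 0.24 (adjusted p = 0.543), called higher in the blocked fit (0.19, adjusted p = 0.000676), as was 5-Ph-IAA against DMSO (0.22, adjusted p = 0.00649). The overlapping gene NECAB2 held counts equal to 12.9% of those of OSGIN1. PIR, pirin, an iron-binding nuclear protein, ran over 22.8 to 30 CPM, and neither fit called it.

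For 20 of the 34 members, the mean log2 difference between library 3 and libraries 1 and 2 of the same group was larger in size than the largest fold change of the 4 comparisons that add 1 drug. This count was not made over all genes. The median size of the library 3 difference was 0.199 for the members and 0.18 for all genes tested. The difference was -1.13 for GPX2, -0.48 for ABCC3 and -0.47 for AKR1C1, the members with the most negative values. At the other end it was 0.76 for OSGIN1, 0.46 for AKR1B1, 0.45 for SRXN1 and 0.44 for TXNRD1. The members that were called included genes of small difference, -0.15 for UGDH, -0.09 for TKT and -0.09 for AKR1B10, as well as HMOX1 with 0.32. All 30 calls counted over the 5 pairwise comparisons and both averaged contrasts were also made without the libraries numbered 3.

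**Figure D4:**
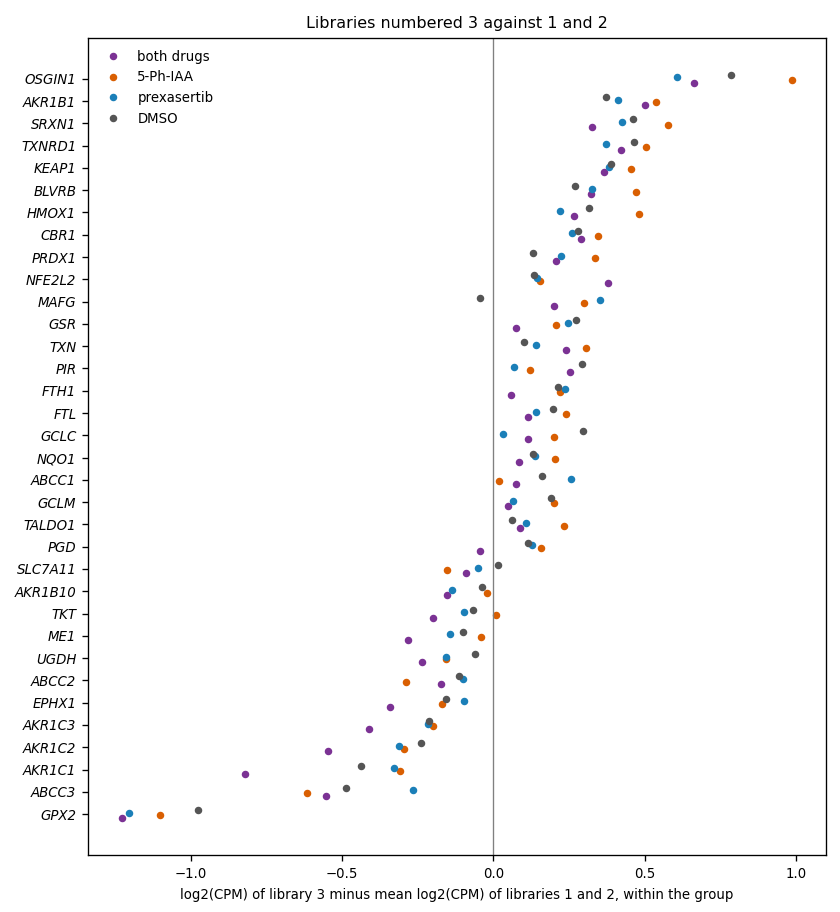
For each of the 34 genes and each group, log2 CPM of the library numbered 3 minus the mean log2 CPM of libraries 1 and 2 of that group, genes sorted by the mean over the groups. OSGIN1 lies highest at a mean of 0.76 and GPX2 lowest at -1.13, and the 4 groups lie on the same side of 0 for most genes.

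A list of 86 other genes linked to NRF2 holds its partners, further glutathione, NADPH, detoxification, haem and export genes. Of them 80 passed the filter on low counts. With 5-Ph-IAA averaged over both arms 20 of the 80 were lower and 6 higher, where 18.4% and 17.3% of all genes tested were called, and the median was -0.08, beside 0.01 for all genes tested. With prexasertib averaged over both arms 6 were lower and 3 higher, where 6% and 4.35% of all genes were called, and the median was 0.003, beside 0.01 for all genes tested. The blocked fit called 37 lower and 14 higher with 5-Ph-IAA, where it called 27.3% and 26.1% of all genes, and 12 lower and 10 higher with prexasertib, where it called 13.9% and 13.2%. The split for 5-Ph-IAA turned with the scaling, since library size alone gave 7 lower and 20 higher, with the median at 0.07. On that scale the median of all genes stood at 0.16, so the list median lay below that of all genes under both scalings. The shares of all genes called with library size alone are not given, so 7 and 20 cannot be set beside them. The genes named below as lower or higher in these contrasts kept their direction and their call in those contrasts under all 21 alternatives run, library size alone included.

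The lower genes with the smallest adjusted p for 5-Ph-IAA were MTHFD2, TIGAR and GGCT. MTHFD2, a mitochondrial enzyme of one-carbon metabolism, had 190.1 ± 22.4 CPM with both drugs, 172 ± 13 CPM with 5-Ph-IAA, 273 ± 5.86 CPM with prexasertib and 257 ± 11.8 CPM in DMSO (SD, n = 3 for each mean), with an averaged effect of -0.55 ± 0.061 (SE, adjusted p = 1.4e-05). TIGAR, a bisphosphatase that diverts sugar to the pentose phosphate pathway, had 78.4 ± 3.76 CPM with both drugs, 65.8 ± 1.69 CPM with 5-Ph-IAA, 94.9 ± 3.81 CPM with prexasertib and 94.7 ± 10.9 CPM in DMSO, with -0.40 ± 0.059 (adjusted p = 0.000164). GGCT, which acts in glutathione turnover, had 51.9 ± 0.919 CPM with both drugs, 51 ± 3.46 CPM with 5-Ph-IAA, 68.5 ± 5.62 CPM with prexasertib and 63.9 ± 3.71 CPM in DMSO, with -0.36 ± 0.059 (adjusted p = 0.000358). In all 3 genes the libraries with 5-Ph-IAA, alone or with prexasertib, lay below all 6 libraries without it.

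The higher genes for 5-Ph-IAA were ALAS1, ALDH3A1 and GSTM3 by the same rule. ALAS1, the first enzyme of haem synthesis, had 152 ± 9.4 CPM with both drugs, 135 ± 11.2 CPM with 5-Ph-IAA, 105 ± 4.47 CPM with prexasertib and 85.7 ± 4.15 CPM in DMSO, with an averaged effect of 0.59 ± 0.055 (SE, adjusted p = 3.2e-06) and all 6 libraries with 5-Ph-IAA above all 6 without it. ALDH3A1, an aldehyde dehydrogenase, had 2821 ± 177 CPM with both drugs, 2663 ± 50.1 CPM with 5-Ph-IAA, 2395 ± 90.8 CPM with prexasertib and 2338 ± 85.6 CPM in DMSO, with 0.21 ± 0.051 (adjusted p = 0.00522). GSTM3, a glutathione transferase, had 21 ± 2.33 CPM with both drugs, 20.5 ± 0.803 CPM with 5-Ph-IAA, 15.5 ± 2.28 CPM with prexasertib and 17.2 ± 1.76 CPM in DMSO, with 0.35 ± 0.091 (adjusted p = 0.00927).

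For prexasertib the 3 higher genes were GDF15, SESN2 and ALAS1. GDF15, a secreted stress factor, had 367 ± 17.1 CPM with both drugs, 202 ± 17.4 CPM with 5-Ph-IAA, 317 ± 17.4 CPM with prexasertib and 199 ± 14.2 CPM in DMSO, with an averaged prexasertib effect of 0.76 ± 0.057 (SE, adjusted p = 2.7e-06). SESN2, a stress-induced inhibitor of mTORC1, had 84.4 ± 3.73 CPM with both drugs, 45.3 ± 7.63 CPM with 5-Ph-IAA, 83.6 ± 4 CPM with prexasertib and 51.3 ± 3.07 CPM in DMSO, with 0.80 ± 0.075 (adjusted p = 1.8e-05), and ALAS1 had 0.23 ± 0.055 (adjusted p = 0.0158). Both GDF15 and SESN2 are known targets of other stress pathways as well.

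The lower genes for prexasertib were TRIM16, BACH1 and BTRC. BACH1, the haem-regulated repressor that competes with NRF2 at HMOX1, had 21.7, 21.5 and 22 CPM with both drugs, 28.2, 31.4 and 33 CPM with 5-Ph-IAA, 18.4, 20.2 and 16.7 CPM with prexasertib and 24.6, 23.3 and 27.5 CPM in DMSO. The 6 libraries with prexasertib all lay below the 6 without it, and the averaged effect was -0.48 ± 0.074 (SE, adjusted p = 0.000941). BACH1 was higher with 5-Ph-IAA, at 0.27 ± 0.074 (adjusted p = 0.0125). TRIM16, a ubiquitin ligase of the antioxidant response, had 293 ± 27.4 CPM with both drugs, 407 ± 49.8 CPM with 5-Ph-IAA, 319 ± 21.8 CPM with prexasertib and 477 ± 27.1 CPM in DMSO, with -0.53 ± 0.068 (adjusted p = 0.000263) for prexasertib. BTRC, a subunit of the ligase that degrades NRF2 without KEAP1, had 24.9 ± 2.53 CPM with both drugs, 32.8 ± 2.68 CPM with 5-Ph-IAA, 20.1 ± 3.61 CPM with prexasertib and 28.7 ± 2.98 CPM in DMSO, with -0.46 ± 0.094 (adjusted p = 0.00695). HMOX1 and its repressor BACH1 were both lower with prexasertib.

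Of other genes fixed by name, IDH1, a cytosolic NADPH source, had -0.08 ± 0.046 (adjusted p = 0.176) for 5-Ph-IAA and -0.003 ± 0.046 (adjusted p = 0.979) for prexasertib, averaged over both arms. SQSTM1, the autophagy adaptor p62 that binds KEAP1, had -0.10 ± 0.10 (adjusted p = 0.48) and -0.17 ± 0.10 (adjusted p = 0.361) in the same order. Neither gene was called without the block. The blocked fit called IDH1 lower with 5-Ph-IAA (adjusted p = 0.0466) and SQSTM1 lower with 5-Ph-IAA and with prexasertib (adjusted p = 0.00838 and 0.000125).

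**Figure D5:**
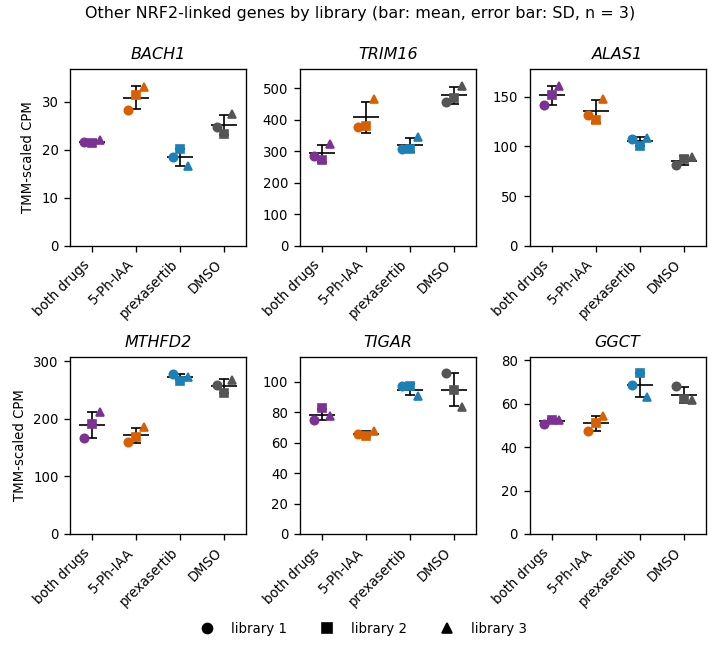
TMM-scaled CPM of 6 other NRF2-linked genes in each library (circle, square and triangle for numbers 1, 2 and 3), with the group mean as a bar and the SD as an error bar (n = 3). BACH1 and TRIM16 lie lower with prexasertib, ALAS1 lies higher with 5-Ph-IAA, and MTHFD2, TIGAR and GGCT lie lower with 5-Ph-IAA.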

How the data were processed

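Poly(A) RNA was counted per gene in 12 directional libraries, and the authors deposited raw counts. Per the submitters' processing notes the build was hg38, and the tools named are featureCounts 2.0.8 and limma 3.58.1. How reads were aligned and annotated, and whether counting used strand, is not given in the sources used here. The chromatin samples of the series were not analysed here. Counts were filtered (filterByExpr, minimum count 10, minimum total 15), scaled by TMM and fitted over all 12 libraries by group with edgeR 4.0.16 in R 4.3.3 (quasi-likelihood, robust). P-values were adjusted by Benjamini-Hochberg over all 14658 genes tested, with a threshold of 0.05. The scripts were tested on simulated data. DESeq2 1.42.0, limma-voom 3.58.1, other scalings and filters, left-out libraries and a replicate block were alternatives. Replicate numbers come from the labels, which do not say what they mark. Deviations from the group means correlated between groups at 0.22 to 0.348 for number 1, 0.261 to 0.402 for number 2 and 0.531 to 0.633 for number 3. All 18 same-number pairs passed the 0.1 required for pairing. So did number 1 against number 2, at 0.196 to 0.366, so this bar cannot show that libraries numbered 1 or 2 are paired. Log2 CPM used a prior count of 2, and intervals cover 95%. Promoter sequences are from RefSeq (GRCh38.p14) and were aligned with Biopython 1.88.

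The members and lists were chosen with earlier results of these data known. Values of every library are given for NFE2L2, KEAP1, MAFG, NQO1, GCLC, GCLM, TXNRD1, SLC7A11, HMOX1, AKR1C1, AKR1C2, AKR1C3, AKR1B10 and any other member called in a pairwise comparison with groups that did not overlap. Of the other NRF2-linked genes, up to 3 in each direction with the smallest adjusted p in each averaged contrast are named, with IDH1, BACH1, SQSTM1 and TRRAP. A further gene of that rule is not reported here. PGD is given in full outside this rule, as are the AKR sums.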

Additional observations from a re-analysis of the deposited data

How the results depend on the processing

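Of the 30 calls of members in the 5 pairwise comparisons and both averaged contrasts, all kept their direction under every alternative run. The replicate block, DESeq2, limma-voom and the fit without the libraries numbered 3 each lost 0 of the 30. RLE size factors, a stricter filter of 1 CPM and summed AKR rows each lost 1, no low-count filter 2, and a fit of only the 2 groups compared 5 of the 19 it gave. Library size alone lost 18. With library size alone the members called lower numbered 0 for 5-Ph-IAA against DMSO (2 higher), 0 for both drugs against prexasertib, 2 for both drugs against 5-Ph-IAA, 4 for both drugs against DMSO and 3 for 5-Ph-IAA averaged over both arms (3 higher). For both drugs against prexasertib, no filter gave 5 lower and DESeq2 7 (12% of all genes). For both drugs against 5-Ph-IAA, RLE, no filter and the 2 groups alone gave 0 lower, and DESeq2 2 (2.35% of all genes). With the replicate block the lower and higher members numbered 8 and 1 for prexasertib against DMSO, 20 and 2 for 5-Ph-IAA against DMSO, 9 and 0 for both drugs against prexasertib, 6 and 1 for both drugs against 5-Ph-IAA, 18 and 1 for both drugs against DMSO, 20 and 2 for averaged 5-Ph-IAA, and 10 and 2 for averaged prexasertib. Without the libraries numbered 3 they numbered 5 and 0, 16 and 2, 8 and 0, 6 and 4, 15 and 1, 19 and 1, and 6 and 1 in that order, and 1 interaction was called higher. That fit called 24.1% of all genes lower and 23% higher for averaged 5-Ph-IAA, and 12.1% and 10.5% for averaged prexasertib. For the interaction it called 0.638% of all genes lower and 0.631% higher. When single libraries were left out, the lower members numbered 0 to 1 for prexasertib against DMSO, 3 to 13 for 5-Ph-IAA against DMSO, 2 to 4 for both drugs against prexasertib, 0 to 1 for both drugs against 5-Ph-IAA, 5 to 8 for both drugs against DMSO, 7 to 15 for averaged 5-Ph-IAA, 2 to 3 for averaged prexasertib and 0 for the interaction, with 0 higher throughout. Shares of all genes are not given for library size alone, RLE, no filter, the 2 groups alone or single libraries left out. Member counts under those alternatives therefore cannot be set beside all genes. The cause of these changes was not tested. Averaged contrasts under these alternatives, the member medians by scaling and the other NRF2-linked genes were added after the data were seen. With 3 libraries a group, a member that was not called is not shown to be unchanged.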
